A study of Mus musculus with 5 samples.

Results

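The Zfp900s are the mouse zinc finger genes whose names run from Zfp900 to Zfp999, and 32 of the 23997 gene names in the table of expression values matched that pattern. All 32 are annotated as protein coding by RefSeq. They were compared between cerebral cortices of embryonic day 16 (E16) mice of the C57BL/6 strain. One group carried no functional Uhrf1 in the dorsal telencephalon (labelled Uhrf1 -/-, called cKO here, n = 2). The other group, the controls, was labelled Uhrf1 +/- (n = 3). Uhrf1 was removed by crossing a floxed Uhrf1 allele to Emx1 Cre, which is active in the progenitors of the dorsal telencephalon, so cells of other origin in the dissected cortex kept the gene. RNA came from the full cortex after depletion of ribosomal RNA, and each library is a biological replicate of its genotype by the methods of the study. Values are FPKM, a count of sequenced fragments divided by transcript length and by library size, and changes are given on the scale of log2(FPKM + 0.1), which understates the change of low genes.

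Uhrf1 encodes a protein that binds hemimethylated DNA behind the replication fork and recruits the maintenance methyltransferase Dnmt1. Most Zfp900s encode proteins with a KRAB domain and an array of C2H2 zinc fingers. In such proteins the fingers read DNA sequence, and the KRAB domain recruits Trim28, a scaffold that brings the histone H3 lysine 9 methyltransferase Setdb1, heterochromatin proteins and histone deacetylases to the bound site. Many KRAB zinc finger proteins silence endogenous retroviral elements, and their genes have multiplied by duplication in clusters on mouse chromosomes. The question put to these genes was whether their expression changed in a cortex without Uhrf1.

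No Zfp900s gene passed the test for a change in the Uhrf1 cKO. Of the 32 genes, 30 reached an average of 0.1 FPKM and could be tested, and none of the 30 had an unadjusted p under 0.05 together with a change over 2-fold in either direction. Most values lay slightly below control: 22 of the 30 log2 fold changes were negative and 8 were positive, with a median of -0.16. The negative share was 73.3%, against 64.9% of the other Zfp genes and 52.2% of all genes tested. The 95% interval of the change lay wholly within 2-fold either way for 26 genes. Control 3 was the highest of the 5 libraries for 24 of the 30 genes, and the size of the downward tilt depends on that library.

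The promoters of the Zfp900s were poor in CG dinucleotides, the target of DNA methylation in mammals. RefSeq promoters (GRCm38.p6) matched 29 of the 32 genes by symbol, and the 250 bases before the start site listed held a median of 7 CG (range 2 to 17). By GENCODE vM21, 20 of the 29 windows hold some annotated exon, of the gene itself or of a neighbour, and 8 hold over 100 bases of one. The windows of Zfp942 and Zfp943 share 94 bases, and those of Zfp942 and Zfp944 hold nearly the same sequence. In this window 7 of 29 genes, 24.1%, held 10 or more CG, against 62% of 250 other Zfp genes tested and 72.8% of 10939 genes tested. The 29 include Zfp936 and Zfp957, which hold 6 and 4 CG and were too low to be tested. The word of 12 bases found in the largest number of these windows, on either strand, was CTAGCCAATCAG, present for Zfp935, Zfp937, Zfp938, Zfp963 and Zfp964 on the strand of the gene. It occurred in 17.2% of the Zfp900s windows, in 2% of those of other Zfp genes tested and in 0.210% of all. The shorter motif CCAAT lies inside that word, and on either strand it occurred in 65.5% of the Zfp900s windows, 42.4% of those of the other Zfp genes and 36.4% of all. All of these shares are over the same 250 bases. The word was picked as the most shared in these windows, so its share is a description. The windows are shown for 3 genes that hold the word and for Zfp936, which gave no signal in any library. That of Zfp961, which has many CG for this family, is shown too. Each is printed 5′ to 3′ on the strand of the gene, with CG and CCAAT in capitals, and these windows hold at most 28 bases of annotated exon.
Zfp937 (chr2:150217849-150218098, plus strand): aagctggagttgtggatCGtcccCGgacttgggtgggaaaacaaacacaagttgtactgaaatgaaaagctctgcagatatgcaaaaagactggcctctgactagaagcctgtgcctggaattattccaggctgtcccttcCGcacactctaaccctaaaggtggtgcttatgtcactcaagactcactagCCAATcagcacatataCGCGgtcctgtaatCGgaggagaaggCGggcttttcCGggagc
Zfp938 (chr10:82241281-82241530, minus strand): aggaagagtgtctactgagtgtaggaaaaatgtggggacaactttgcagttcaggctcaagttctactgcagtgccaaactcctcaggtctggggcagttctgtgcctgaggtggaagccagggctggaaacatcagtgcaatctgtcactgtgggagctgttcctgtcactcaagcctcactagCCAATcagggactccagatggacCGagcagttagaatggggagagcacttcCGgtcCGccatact
Zfp963 (chr8:69749963-69750212, minus strand): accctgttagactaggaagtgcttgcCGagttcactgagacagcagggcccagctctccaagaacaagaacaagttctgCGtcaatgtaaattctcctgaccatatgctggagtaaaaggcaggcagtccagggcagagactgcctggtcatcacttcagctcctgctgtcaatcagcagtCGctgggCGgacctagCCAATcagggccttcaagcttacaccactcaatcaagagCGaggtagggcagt
Zfp936 (chr7:43177340-43177589, plus strand): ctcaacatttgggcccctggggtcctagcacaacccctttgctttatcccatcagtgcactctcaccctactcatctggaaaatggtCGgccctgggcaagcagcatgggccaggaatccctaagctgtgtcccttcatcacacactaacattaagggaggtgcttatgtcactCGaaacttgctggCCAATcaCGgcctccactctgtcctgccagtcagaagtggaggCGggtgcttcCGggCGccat
Zfp961 (chr8:71950816-71951065, plus strand): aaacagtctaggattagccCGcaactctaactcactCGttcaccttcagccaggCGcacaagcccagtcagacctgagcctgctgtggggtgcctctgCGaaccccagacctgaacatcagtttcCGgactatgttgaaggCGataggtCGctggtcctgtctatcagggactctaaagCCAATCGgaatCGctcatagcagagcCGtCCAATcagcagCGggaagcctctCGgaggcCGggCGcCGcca
In the Zfp936 window CCAAT lies in a close variant of the shared word and not in the word itself. The Zfp961 window holds CCAAT without the word and 15 CG against 3 in the Zfp938 window.

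The proteins encoded were alike in build. In GENCODE vM21, 31 of the 32 genes had a coding transcript, and 30 of these encoded 6 to 18 C2H2 fingers, with a median of 11. The KRAB A box, the part of the domain that contacts Trim28, was matched by a sequence pattern in 28 of the 31 and not in Zfp935, Zfp956 and Zfp957, and Zfp957 also gave no match to the finger pattern. Zfp939 is a pseudogene in GENCODE and protein coding in RefSeq. Because reads that map to several places were removed by the authors, the share of transcript sequence that is unique matters for these recently duplicated genes. Windows of 100 bases, the read length, were compared with the annotated transcripts of other genes, leaving aside genes that overlap. By that measure 18 genes were unique throughout. Copies elsewhere in the genome were not searched, so reads of these genes may still map to several places. Under 95% of windows were unique for 6 genes, and those values are uncertain: Zfp960 at 30.8% (shared most with Zfp97), Zfp932 at 73.1% (Gm15446), Zfp934 at 83.9% (Zfp808), Zfp931 at 84.6% (Gm14418), Zfp937 at 89.1% (Zfp442) and Zfp959 at 94.4% (Zfp119a). A further 5 genes, Zfp935, Zfp941, Zfp953, Zfp956 and Zfp963, share sequence with an annotated gene that overlaps them. Of these, Zfp941, Zfp953 and Zfp956 are counted among the 18.

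The labels were first checked on Uhrf1 itself. Its level was 7.24, 13.2 and 13.0 FPKM in controls 1 to 3 and 2.75 and 2.61 FPKM in cKO 1 and 2, and the groups did not overlap. On average 24.1% of the control level was left in the cKO, and the log2 fold change was -1.97 with an SE of 0.28 (limma, Benjamini-Hochberg adjusted p = 0.0076). The markers of dorsal cortex summed to 851 to 1162 FPKM among controls and 749 to 764 FPKM among cKO libraries, and none was at 0. That sum is mostly Neurod6, and 2 of the 5 markers, Tbr1 and Bcl11b, had a positive log2 fold change (0.32 and 0.31), with a median of -0.01 over the list. Markers of ventral telencephalon and interneurons summed to 54.4 to 60.3 FPKM among controls and 71.3 to 90.1 FPKM among cKO libraries, with 6 of 6 log2 fold changes positive and none past the thresholds, and those of the oligodendrocyte lineage to 10.3 to 17.2 and 20.2 to 28.6 FPKM. In 2 other lists 1 marker passed an unadjusted p under 0.05 with a change over 2-fold. These were the astrocyte gene Gfap, at 0.833, 0.424 and 0.224 FPKM in controls 1 to 3 and 2.91 and 2.52 FPKM in cKO 1 and 2, and the globin gene Hba-a1, with 34.5 FPKM in cKO 1 and at most 1.29 FPKM elsewhere. The sums of both lists overlapped between the groups. The 3 astrocyte markers summed to 7.92 to 17.2 FPKM among controls and 12.1 to 18.8 FPKM among cKO libraries, with 2 log2 fold changes positive. The 3 red blood cell markers summed to 147 to 372 FPKM among controls and 129 to 230 FPKM among cKO libraries. Of these only 1 log2 fold change was positive, and the median was -0.20. Progenitor markers summed to 117 to 140 FPKM among controls and 96.1 to 109 FPKM among cKO libraries. The part of these differences in the values of the Zfp900s was not tested, and in whole tissue fewer cells of a type and less RNA per cell cannot be told apart. Names of small RNAs took 39.3% to 88.4% of the summed FPKM of a library, and they were left out of the tests.

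The expressed Zfp900s lay in the middle of the range of all genes tested. The mean over the 5 libraries had a median of 11.3 FPKM among the 30 tested genes, at percentile 55.2 of all genes tested, and ranged from 1.11 FPKM (Zfp953) to 19.5 FPKM (Zfp932). The median of the 305 other Zfp genes tested was 10.02 FPKM and that of all 14696 genes was 9.02 FPKM. All 30 were above 0 in every library and 16 had a mean of at least 10 FPKM. The remaining genes were near silent. Zfp936 was listed at 0 in all 5 libraries, and Zfp957 was listed at 0.0641 FPKM in control 1 and at 0 in the other libraries.

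**Figure D1:**
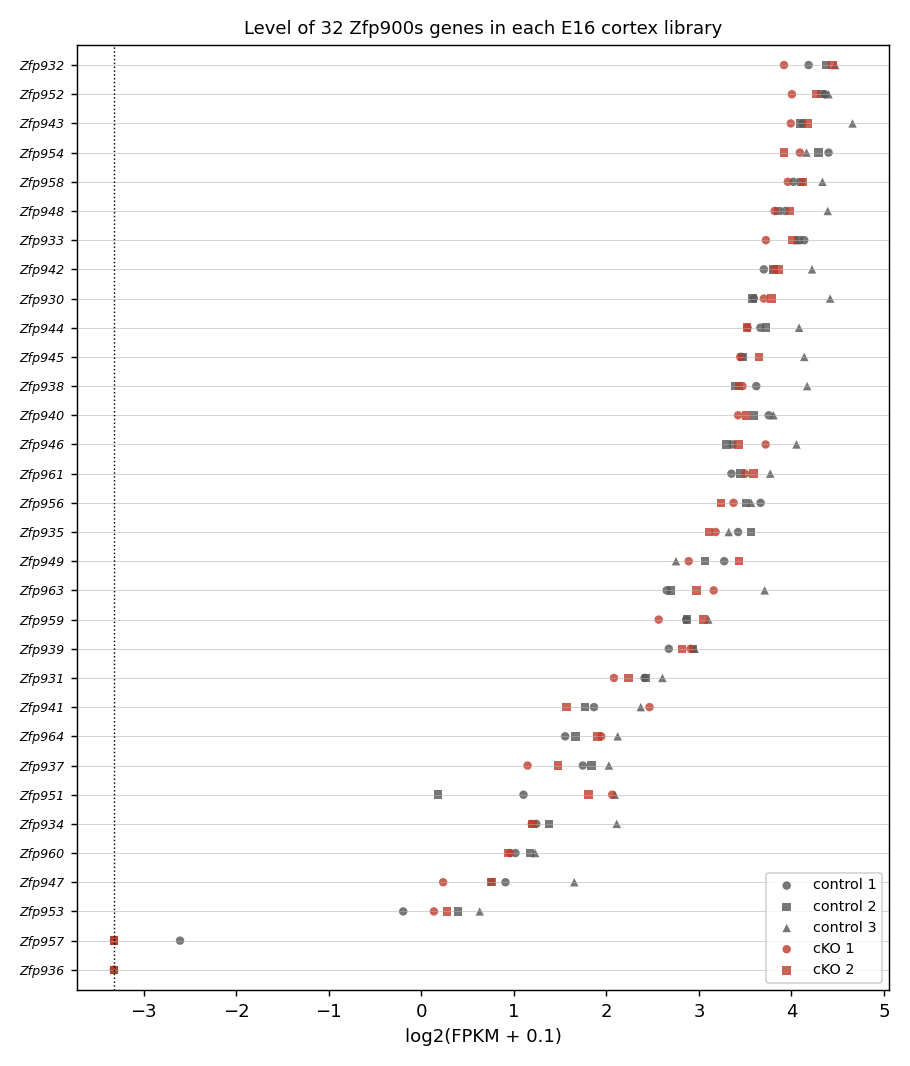
Level of each of the 32 Zfp900s genes in the 5 E16 cortex libraries, as log2(FPKM + 0.1) on the horizontal axis, with genes ordered by mean; grey symbols are control 1 to 3 and red symbols are cKO 1 and 2, and the dotted line marks 0 FPKM. Control 3 (grey triangle) lies to the right of the other libraries for 24 of 30 tested genes, and Zfp936 lies on the line of 0 FPKM in every library.

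Among the 8 genes with the highest mean, the cKO mean lay between 82.1% and 94.0% of the control mean. Zfp932, which with its paralog Gm15446 is known to repress retroviral elements, was read at 18.1, 20.6 and 22.1 FPKM among controls and 15.0 and 21.6 FPKM among cKO libraries. cKO 1 lay below every control and cKO 2 between controls 2 and 3, and the log2 fold change was -0.16 (95% interval -0.60 to 0.28, adjusted p = 0.770 by limma). Gm15446, which shares 512 windows of 100 bases with Zfp932, was read at 1.10, 1.11 and 1.46 FPKM among controls and 0.655 and 2.42 FPKM among cKO libraries, so the cKO libraries lay below and above all 3 controls. Zfp952 was read at 20.4, 19.9 and 21.0 FPKM among controls and 15.95 and 19.1 FPKM among cKO libraries, with a log2 fold change of -0.23 (-0.59 to 0.13). Zfp954 was read at 21.0, 19.5 and 17.8 FPKM among controls and 16.9 and 15.0 FPKM among cKO libraries, with a log2 fold change of -0.28 (-0.65 to 0.08). Both cKO libraries lay below every control for these last genes, by less than 2-fold, and neither passed the test. Zfp933 behaved alike in order, at 17.5, 16.8 and 16.6 FPKM among controls and 13.1 and 15.9 FPKM among cKO libraries, with a log2 fold change of -0.23 (-0.60 to 0.14). Zfp958 was read at 16.1, 17.1 and 20.1 FPKM among controls and 15.5 and 17.3 FPKM among cKO libraries (a change of -0.11, interval -0.49 to 0.27). Zfp948 was read at 15.2, 14.4 and 20.9 FPKM among controls and 14.01 and 15.7 FPKM among cKO libraries (a change of -0.16, interval -0.61 to 0.29). In both genes control 3 was the highest library and the groups overlapped. They also overlapped for Zfp943 and Zfp942, at -0.21 (-0.67 to 0.25) and -0.07 (-0.51 to 0.37). The order of these 8 levels is loose, since the means over all libraries ran from 14.8 to 19.5 FPKM while single libraries of 1 gene differed by as much.

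The lowest log2 fold changes belonged mostly to genes of low level. Zfp937 was read at 3.25, 3.48 and 3.97 FPKM among controls and 2.12 and 2.68 FPKM among cKO libraries, and both cKO libraries lay below every control. Its log2 fold change was -0.56 (95% interval -1.09 to -0.03), with an unadjusted p of 0.0417 and an adjusted p of 0.413 by limma, the smallest adjusted p among the 30 genes. It was the only gene of the family with an unadjusted p under 0.05, where 5.17% of all genes were lower and 6.37% higher by that rule. Its unadjusted p was not under 0.05 when any control or cKO 1 was left out, with log2 fold changes of -0.62, -0.57 and -0.48 without controls 1, 2 and 3 and -0.40 without cKO 1. It was 0.0531 by limma with no filter on low values. Zfp947 was read at 1.78, 1.59 and 3.04 FPKM among controls and 1.08 and 1.60 FPKM among cKO libraries, with a log2 fold change of -0.61 (-1.38 to 0.17). Control 3 stands above the other controls there, and cKO 2 lies within them. Zfp934 was read at 2.27, 2.50 and 4.22 FPKM among controls and 2.19 and 2.20 FPKM among cKO libraries (a change of -0.38, interval -1.06 to 0.30), so control 1 and both cKO libraries were nearly level. Zfp931 was read at 5.22, 5.29 and 5.99 FPKM among controls and 4.13 and 4.62 FPKM among cKO libraries, with a log2 fold change of -0.32 (-0.77 to 0.13). Zfp944 was read at 12.6, 13.1 and 16.8 FPKM among controls and 11.4 in both cKO libraries, with a log2 fold change of -0.30 (-0.72 to 0.11). For Zfp934, Zfp931 and Zfp944 the cKO libraries lay below every control, and none passed the test.

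At the other end Zfp951 was read at 2.05, 1.03 and 4.16 FPKM among controls and 4.08 and 3.40 FPKM among cKO libraries. Control 3 lay above both cKO libraries and controls 1 and 2 lay below them, so the spread among controls was as wide as the difference between groups. The log2 fold change was 0.81 (95% interval -0.24 to 1.86, adjusted p = 0.538 by limma), the highest of the family and the widest interval. Without control 3 it was 1.29 and passed the unadjusted p under 0.05 with over 2-fold, with an adjusted p of 0.216, and without control 2 it was 0.34. Zfp964 was read at 2.84, 3.07 and 4.25 FPKM among controls and 3.75 and 3.65 FPKM among cKO libraries (a change of 0.15, interval -0.41 to 0.70), again with control 3 above both cKO libraries. Zfp949 differed in order, with control 3 the lowest library, at 9.56, 8.27 and 6.64 FPKM among controls and 7.31 and 10.7 FPKM among cKO libraries (0.13, interval -0.40 to 0.66). Zfp961 was read at 10.1, 10.8 and 13.5 FPKM among controls and 11.2 and 11.9 FPKM among cKO libraries (a change of 0.02, interval -0.40 to 0.44). Zfp963 had a change of 0.05 (-0.65 to 0.74), and for both genes control 3 lay above the cKO libraries and the other controls below.

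**Figure D2:**
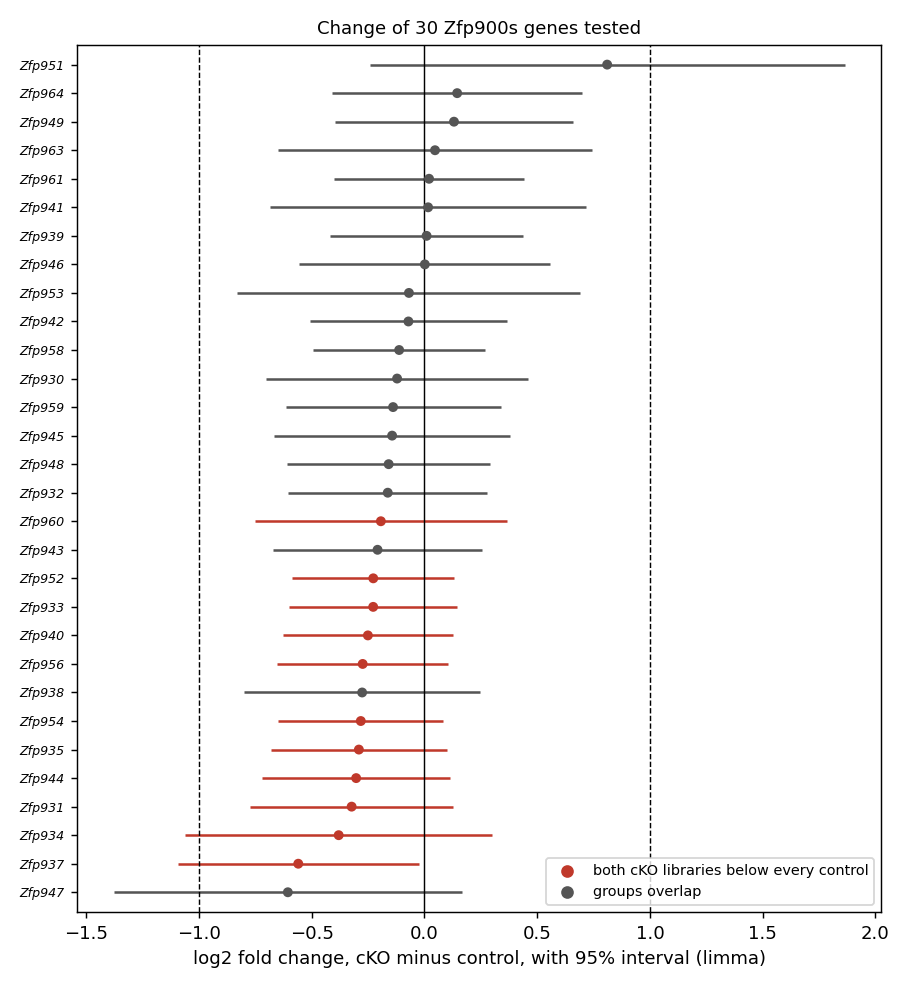
Log2 fold change, cKO minus control, of the 30 Zfp900s genes tested (points) with the 95% interval from limma (lines), ordered by change; red marks genes whose cKO libraries both lie below every control, and dashed lines mark 2-fold either way. Every interval but that of Zfp937 includes 0, and the interval of Zfp951 is the widest, from -0.24 to 1.86.

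Read against all genes, the family held no called gene where few were called. By an unadjusted p under 0.05 with a change over 2-fold, 0 of 30 were higher and 0 lower, and 2.88% and 1.16% of all genes tested were. By a Benjamini-Hochberg adjusted p under 0.05 (limma), 0 of 30 were higher and 0 lower, against 1.1% and 0.163%. With shares of this size a family of 30 genes would hold few called genes in any case. Intervals within 2-fold either way were found for 70.6% of all genes, for 89.5% of the other Zfp genes and for 26 of the 30 Zfp900s genes, 86.7%. The exceptions were Zfp951, Zfp947, Zfp937 and Zfp934, all with a mean under 5 FPKM.

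The counts of separated groups were uneven. Both cKO libraries lay below every control for 11 genes, 36.7% of the 30, where 16.3% of all genes tested did, and above every control for 0, where 14.5% did. Other zinc finger genes leaned the same way, with 72 of the 305 other Zfp genes below (23.6%) and 25 above. Of the 13 other genes tested within the genomic clusters of the family, 5 were below and 0 above. The 11 were Zfp931, Zfp933, Zfp934, Zfp935, Zfp937, Zfp940, Zfp944, Zfp952, Zfp954, Zfp956 and Zfp960, with cKO means from 67.2% to 86.7% of control means. The expressed genes without a match to the KRAB A box were both among them. Zfp935 was at 10.6, 11.7 and 9.90 FPKM among controls against 8.96 and 8.52 FPKM in cKO 1 and 2, and Zfp956 at 12.6, 11.3 and 11.7 FPKM against 10.3 and 9.33 FPKM. The median log2 fold change of the family was -0.16, that of the other Zfp genes -0.11 and that of all genes -0.02. Leaving out control 3 kept the count below at 11 (25.5% of all genes), raised the count above from 0 to 7 (19.98% of all genes) and brought the median to -0.04, with -0.09 for the other Zfp genes. Leaving out cKO 2 raised the count below to 18, 60% of the 30, against 29.1% of all genes. Without cKO 1 it was 12, 40%, against 30.4% of all genes. No test of the family as a whole was made, since its members were chosen with earlier results known.

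Control 3 stood apart in these genes. The summed level of the 32 genes was 296, 294 and 371 FPKM in controls 1 to 3 and 276 and 295 FPKM in cKO 1 and 2. Control 3 was the highest library for 80% of the 30 genes, compared with 38.7% of the other Zfp genes and 26.1% of all genes. Its ratio to the mean of controls 1 and 2 had a median of 1.30 among the Zfp900s and 0.977 among all genes, and was over 1.5 for 8 of 30 genes (26.7%, against 10.04% of all genes). The highest ratios were those of Zfp951 at 2.70, Zfp963 at 2.07, Zfp947 at 1.81, Zfp930 at 1.79 and Zfp934 at 1.77. Zfp930 was at 11.96, 11.8 and 21.3 FPKM among controls against 12.9 and 13.7 FPKM in cKO 1 and 2. Zfp963 was at 6.18, 6.38 and 13.0 FPKM among controls against 8.84 and 7.76 FPKM in cKO 1 and 2. For both genes the cKO libraries lay between control 3 and the other controls. Zfp949, Zfp954, Zfp935, Zfp933 and Zfp956 had a ratio under 1. The median deviation of these genes in control 3 from their own means was 0.31 on the log2 scale, larger in size than the median log2 fold change between the groups.

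**Figure D3:**
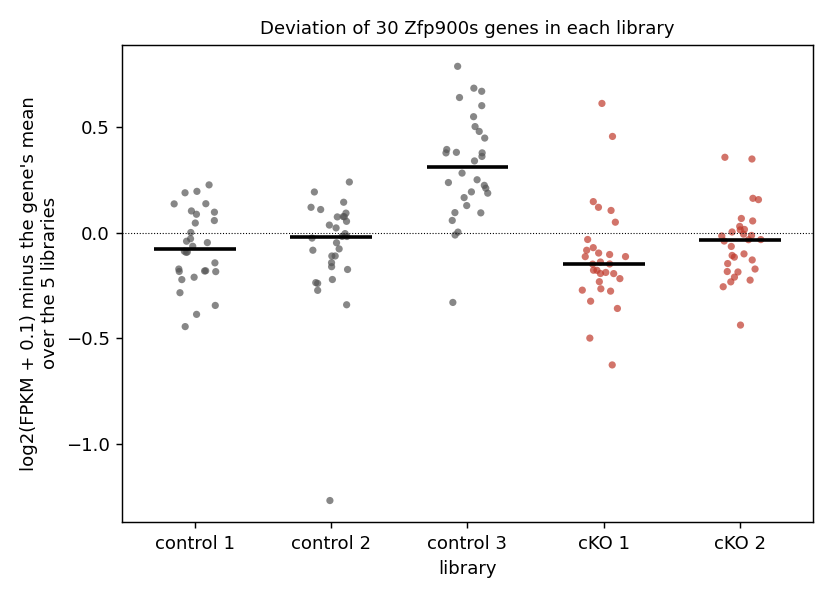
Deviation of each of the 30 Zfp900s genes tested from its own mean over the 5 libraries, in log2(FPKM + 0.1), with 1 point per gene and library and a bar at the median of each library. The median is 0.31 in control 3 and between -0.15 and -0.02 in the other 4 libraries.

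Control 3 was also the highest library in both genomic clusters of these genes. A cluster was taken as 3 or more Zfp900s genes on 1 chromosome with neighbouring starts within 1 Mb. On GRCm38.p6, 7 genes (Zfp948, Zfp942, Zfp943, Zfp947, Zfp944, Zfp946 and Zfp945) lie at chr17:21565816-22867309 and 3 (Zfp930, Zfp964 and Zfp963) at chr8:69209018-69749962, and the other 20 tested genes lie in no such cluster. Of those, Zfp932 lies at chr5:109996502-110012266, Zfp951 at chr5:104802246-104860157, Zfp937 at chr2:150218077-150246738, Zfp931 at chr2:178066446-178078425 and Zfp954 at chr7:7114683-7121476. The genes of the chromosome 17 cluster summed to 80.8, 80.8 and 118.5 FPKM among controls and 80.1 and 84.3 FPKM among cKO libraries. Those of the chromosome 8 cluster summed to 21.0, 21.3 and 38.5 FPKM among controls and 25.5 and 25.1 FPKM among cKO libraries. In both sums control 3 was the highest library and controls 1 and 2 were close to the cKO or below it. The median log2 fold changes were -0.16 on chromosome 17, 0.05 on chromosome 8 and -0.21 outside these clusters. Of the 11 genes below every control, 10 lay outside them. Zinc finger genes of other names did not count towards a cluster, so a gene outside may still have zinc finger neighbours. Zfp942 and Zfp943, which start next to each other on opposite strands, were read at 12.9, 13.9 and 18.6 FPKM and at 17.3, 17.0 and 25.2 FPKM in controls, and at 13.9 and 14.5 FPKM and 15.8 and 18.0 FPKM among cKO libraries. For the 13 other genes tested within the clusters the median log2 fold change was -0.20, none passed the thresholds, and those of highest mean, Zfp869 and Zfp868, were at -0.24 and -0.13.

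Genes with more and with fewer CG in the promoter had similar medians. The split at 10 CG is low, since the median was 16 CG over all genes tested and 12 over the other Zfp genes. For the 7 tested genes with 10 or more CG in the 250 bases before the start the median log2 fold change was -0.14 (range -0.30 to 0.15), and the 20 with fewer were at -0.16 (-0.61 to 0.81). Their control means had medians of 11.9 and 11.4 FPKM. Zfp942, Zfp943 and Zfp944, with 17 CG each, and Zfp931, with 2 CG, all had log2 fold changes between -0.32 and -0.07. The windows of Zfp942 and Zfp944 hold nearly the same sequence and those of Zfp942 and Zfp943 overlap, so they are not independent cases. The Zfp956 window, with 11 CG, lies wholly in an exon of Zfp783. The 6 genes with under 95% unique windows had a median change of -0.26 and the 24 with more had -0.13. No test of these differences was made.

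**Figure D4:**
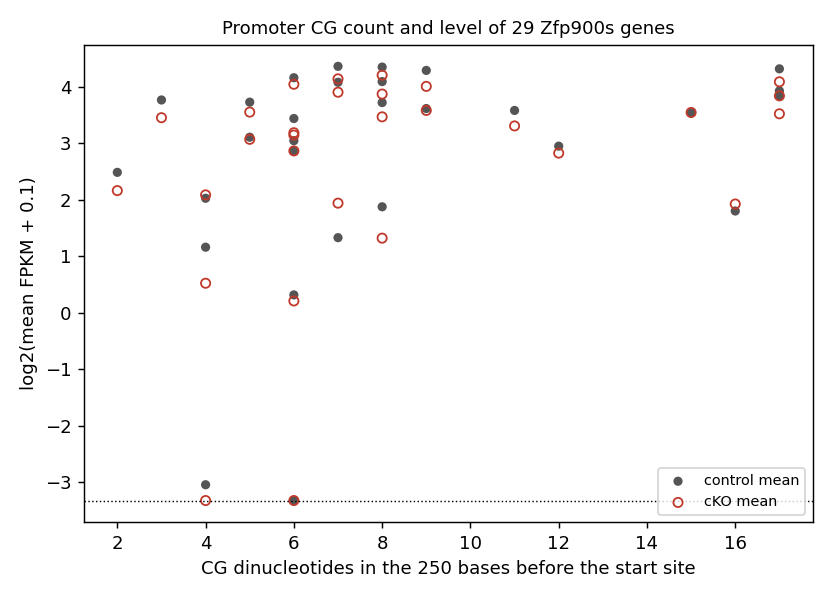
Number of CG dinucleotides in the 250 bases before the start site (horizontal axis) against log2(mean FPKM + 0.1) in control (filled grey) and cKO (open red) for 29 Zfp900s genes, with a dotted line at 0 FPKM. Control and cKO means lie close together at low and at high CG counts, and the 2 genes at or near 0 FPKM have 4 and 6 CG.

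None of the genes that KRAB zinc finger proteins work with passed the test either. Of 19 co-repressor genes 18 were tested, and 0 passed an unadjusted p under 0.05 with a change over 2-fold or an adjusted p under 0.05 by limma, with 0 at an unadjusted p under 0.05. Trim28 was read at 161, 151 and 121 FPKM among controls and 116 and 158 FPKM among cKO libraries, and its log2 fold change was -0.08 (95% interval -0.53 to 0.37). Setdb1 was read at 27.8, 27.4 and 24.5 FPKM among controls and 22.7 and 27.2 FPKM among cKO libraries (-0.09, interval -0.46 to 0.27). The intervals of 17 of the 18 lay within 2-fold. The genes with the highest mean were Hdac2, a histone deacetylase, with a log2 fold change of -0.27 (-0.69 to 0.14), and Trim28. The median of the list was -0.10 and 6 of the 18 (33.3%) were below every control and 0 above, against 16.3% and 14.5% of all genes.

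Of 11 KRAB zinc finger genes of known target outside the family, 10 were tested and 0 passed, with 0 at an unadjusted p under 0.05 by limma and a median log2 fold change of 0.03. Zfp57, which guards methylation at imprinted loci, was read at 82.8, 79.3 and 68.3 FPKM among controls and 76.7 and 71.1 FPKM among cKO libraries, with a log2 fold change of -0.05 (-0.41 to 0.30). Zfp445, which acts at imprinted loci too, had a log2 fold change of -0.07 (-0.43 to 0.30). Among the 305 other Zfp genes tested, 4 were higher (Zfp69, Zfp345, Zfp503 and Zfp575) and 1 lower (Zfp473) by an unadjusted p under 0.05 with a change over 2-fold. Their log2 fold changes were 1.85, 2.16, 1.23, 1.56 and -1.20 in that order. Only Zfp69 also passed an adjusted p under 0.05. Zfp69 was read at 1.03, 1.17 and 1.74 FPKM among controls and 5.34 and 4.45 FPKM among cKO libraries, with an interval of the change from 1.20 to 2.50 and an adjusted p of 0.0139 by limma. The other Zfp genes of highest mean, Zfp207 and Zfp146, were at -0.37 and -0.36. The interval of Zfp69 lies above the upper bound of every Zfp900s interval except that of Zfp951, which reached 1.86.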

How the data were processed

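Full E16 cortices (3 control and 2 cKO) gave 1 RNA library each, sequenced as 100-base pairs. The authors mapped reads to mm10 with TopHat2, removed duplicates and reads mapping to several places, and computed the deposited FPKM values with Cuffdiff. Versions were not given in the sources used here. No counts are held in the table. Steps between low values gave a rough depth of 15450000, 10300000 and 9650000 fragments for control 2, control 3 and cKO 2. At these depths 80.1%, 76.2% and 77.7% of values lay within 0.25 of a whole read. Chance gives 50% at a depth fixed in advance, but each depth was picked as the best of many, so chance gives more here. No depth was clear for the other libraries, so no interval for counting error is given. All 5 columns were matched to libraries by the labels.

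The fit of log2(FPKM + 0.1) used lmFit and eBayes with a trend in limma 3.58.1 (R 4.3.3, 6.253 prior degrees of freedom), over genes averaging at least 0.1 FPKM, after 59 small RNA names that reached it were left out. P-values were adjusted over 14696 genes by the method of Benjamini and Hochberg. They rest on the spread between these libraries, with 3 residual degrees of freedom per gene. The variance of each gene was drawn by eBayes towards a trend over all genes. A permutation over 3 and 2 libraries cannot give a p below 0.1. Thresholds were an unadjusted p under 0.05 with over 2-fold, and an adjusted p under 0.05. The fit was tested on simulated data. Members and lists were chosen with earlier results of these data known. Named by rule are the 8 members of highest mean, the 5 highest and 5 lowest log2 fold changes and Zfp932. Names in the table were matched to RefSeq (22500 by symbol, 1339 by synonym, 158 not). Promoters come from RefSeq GRCm38.p6 (for a gene with several starts, the first one listed), and transcripts from GENCODE vM21. The comparison of control 3 with the other controls and the shared promoter word were chosen after the values were seen. Alternatives were other pseudocounts, filters, scalings, a fit without the trend, sex of the animal (read from Ddx3y) as a covariate and leaving out each library.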

Additional observations from a re-analysis of the deposited data

How the results depend on the processing

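Of 234 log2 fold changes of the 18 named members under 13 alternatives, 221 kept their direction and side of the threshold, 12 changed sign and 1 passed the threshold. The count of members higher by an unadjusted p under 0.05 and over 2-fold was 0 to 1 with a library left out. The 1 was Zfp951 without control 3, at a log2 fold change of 1.29. No member passed an adjusted p under 0.05 in any alternative, where the smallest adjusted p ran from 0.216 to 0.664. The members that changed sign had log2 fold changes from -0.16 (Zfp932 and Zfp948) to 0.13 (Zfp949) in the main fit. The family median of -0.16 is of that size. Zfp961 was at -0.0048 with equal library medians. With a library left out, Zfp961 ran from -0.066 to 0.14, Zfp932 from -0.42 to 0.10, Zfp942 from -0.18 to 0.086, Zfp948 from -0.26 to 0.0076, Zfp949 from -0.14 to 0.40 and Zfp963 from -0.14 to 0.39. Negative members numbered 18 (without control 3) to 27 (without control 1) of 30. Intervals within 2-fold numbered 18 without 1 cKO library and up to 29 with a pseudocount of 1. Of other Zfp genes 5 passed, 1 with a pseudocount of 1 or a minimum mean of 1 FPKM, and 3 to 6 with a library left out. The cause of these shifts was not tested. No paired analysis was possible because the labels give the groups no shared replicate numbers. The depth of single libraries is known only roughly, which limits values under 1 FPKM.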
